A study of Mus musculus with 42 samples.

Results

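The 10 genes examined here encode enzymes of glycolysis: the hexokinases Hk1 and Hk2, glucose-6-phosphate isomerase (Gpi1), the phosphofructokinase subunits Pfkl and Pfkp, aldolase A (Aldoa), phosphoglycerate kinase 1 (Pgk1), pyruvate kinase M (Pkm) and the lactate dehydrogenase subunits Ldha and Ldhb. They were taken by name, matching the Entrez gene IDs of the RNA-seq count table to symbols, and all 10 were found among the 27179 genes of the table. The RNA came from Thy1+ spermatogonia, enriched for undifferentiated cells, and from c-Kit+ spermatogonia, which are differentiating, of male C57BL/6J mice at 10 days post-partum (dpp). Control mice (Ddx4-Cre; Chd8 +/F) and Chd8 conditional knockout mice (CKO; Ddx4-Cre; Chd8 F/-) gave 3 libraries each per population, 12 in all. Both genotypes carried the Cre, which is active in germ cells and not in the somatic cells of the testis, so control germ cells could also lose their floxed allele and keep 1 intact copy. The deleted allele of the F/- mice was inherited, so their somatic cells would also hold 1 deleted copy, unlike those of the +/F controls. The populations were isolated with magnetic beads after digestion of the testes of 3 male pups for each analysis, and the sources used here do not say whether a library is 1 pup. P-values therefore measure the spread between these libraries.

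Glycolysis splits glucose into pyruvate and yields a small amount of ATP without oxygen, and lactate dehydrogenase turns pyruvate into lactate while restoring NAD+. Most steps can be carried out by more than one isozyme, and the choice of isozyme differs between tissues. In the testis the somatic Sertoli cells are known for high glycolysis and release lactate that germ cells use, undifferentiated spermatogonia are held to be more glycolytic than differentiating ones, and meiotic and later germ cells use testis-specific isozymes such as Pgk2, Ldhc and Gapdhs.

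Library totals ran from 32266861 to 45396233 counts, and the 10 genes together took 0.122% to 0.209% of a library. Levels are given as CPM (counts scaled to the same library size, after TMM), and as CPM per kb of exon where genes are compared with each other. A gene was called where edgeR's quasi-likelihood test gave a false discovery rate (FDR, Benjamini-Hochberg over all genes tested) under 0.05 and its log2 fold change was larger than 0.5 in either direction. All 10 genes passed the filter on low counts in each comparison. Chd8 itself stood at 259 to 278 CPM in the Thy1+ control libraries, 258 to 298 in Thy1+ CKO, 263 to 305 in c-Kit+ control and 297 to 316 in c-Kit+ CKO, and the whole-gene count also takes reads from the exons that stay outside the floxed stretch, so it does not show the deletion. Thy1 stood at 11.7 to 17.1 CPM in the Thy1+ libraries and 0.436 to 1.07 in the c-Kit+ libraries, and Kit at 171 to 432 and 626 to 782 CPM. Markers of somatic cells were present in every group. The summed Sertoli markers ranged from 485 to 1999 CPM in Thy1+ control, 935 to 2619 in Thy1+ CKO, 546 to 1381 in c-Kit+ control and 2184 to 2392 in c-Kit+ CKO, and all 10 listed Sertoli genes had reads in every group.

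Because Pfkl, Ldhb, Ldha and Aldoa rose together in the c-Kit+ cells (values below), the 250 bases before their start sites are shown, with those of Gpi1, whose level moved the other way. Sequences are from RefSeq (GRCm38.p6), 5′ to 3′ on the gene's strand, at the first start site listed for each gene. Capitals mark ACGTG or GCGTG, the core letters bound by hypoxia-inducible factors, on either strand, so that CACGT and CACGC are marked too.
Pfkl (chr10:78009808-78010057, minus strand): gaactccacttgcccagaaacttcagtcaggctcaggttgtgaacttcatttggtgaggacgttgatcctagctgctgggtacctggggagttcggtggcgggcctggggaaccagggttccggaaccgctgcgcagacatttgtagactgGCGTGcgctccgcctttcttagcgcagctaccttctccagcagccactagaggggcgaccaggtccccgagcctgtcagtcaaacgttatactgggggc
Ldhb (chr6:142507958-142508207, minus strand): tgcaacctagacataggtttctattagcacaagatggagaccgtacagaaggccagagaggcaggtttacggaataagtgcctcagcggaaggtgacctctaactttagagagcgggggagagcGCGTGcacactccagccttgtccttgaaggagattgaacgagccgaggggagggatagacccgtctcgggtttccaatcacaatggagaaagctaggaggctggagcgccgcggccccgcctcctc
Ldha (chr7:46845554-46845803, plus strand): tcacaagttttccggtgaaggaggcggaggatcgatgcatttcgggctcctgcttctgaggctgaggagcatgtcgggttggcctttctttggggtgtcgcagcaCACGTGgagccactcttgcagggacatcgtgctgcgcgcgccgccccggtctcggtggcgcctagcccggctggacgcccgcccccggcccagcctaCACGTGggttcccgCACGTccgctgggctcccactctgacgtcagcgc
Aldoa (chr7:126800448-126800697, minus strand): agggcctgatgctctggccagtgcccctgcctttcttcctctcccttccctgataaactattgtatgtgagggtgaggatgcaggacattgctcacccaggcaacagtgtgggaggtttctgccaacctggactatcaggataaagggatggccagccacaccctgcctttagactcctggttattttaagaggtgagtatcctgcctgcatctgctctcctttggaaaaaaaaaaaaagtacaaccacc
Gpi1 (chr7:34230337-34230586, minus strand): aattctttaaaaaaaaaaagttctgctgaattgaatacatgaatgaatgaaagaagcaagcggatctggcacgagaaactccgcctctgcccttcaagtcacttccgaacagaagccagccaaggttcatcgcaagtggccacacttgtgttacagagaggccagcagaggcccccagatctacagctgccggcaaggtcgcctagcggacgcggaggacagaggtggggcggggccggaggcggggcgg

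At the first listed starts, 6 of the 10 genes held at least 1 such match, against 38.6% of the 27025 genes with a listed start, and Gpi1 and Aldoa were among those without one. Over all 15 windows listed for the 10 genes, several of them for 1 gene and 2 of the 3 for Aldoa overlapping each other, Gpi1 was the single gene with no match in any. The Ldha window held the palindrome CACGTG, the E-box bound by MYC-type factors, in 2 places, and no other window of the 10 genes held it, against 6.02% of all windows. Each CACGTG also counts as ACGTG on both strands. A match says only that these letters are present.

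In c-Kit+ spermatogonia, Ldhb, Pfkl, Ldha and Aldoa were higher in CKO than in control, by 1.53-fold to 2.25-fold, which is 4 of the 10 genes called higher and 0 called lower. Over all genes tested in this comparison, 14.8% were called higher and 7.41% lower. At an FDR under 0.05 but below the fold threshold, Hk2, Pkm and Pgk1 were higher and Gpi1 was lower. Without a minimum on the fold change that gives 7 genes higher and 1 lower, against 20.8% and 18.3% of all genes. Hk1 and Pfkp did not pass the test. The control and CKO libraries did not overlap for 8 of the 10 genes, against 52.2% of all genes tested. The median log2 fold change of the 10 genes was 0.36, against 0.01 over all genes. In RNA from mixed cells, more cells of one type and more RNA per cell cannot be told apart.

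Ldhb (chr6:142490249-142507943, minus strand) encodes the heart-type subunit of lactate dehydrogenase, the form known to favour the conversion of lactate to pyruvate. In the c-Kit+ libraries its level was 111, 48.6 and 81.2 CPM in control replicates 1, 2 and 3, and 180, 177 and 205 CPM in the CKO replicates. Every CKO library was above every control library. On the log2 scale the difference was 1.17 ± 0.22 (SE; FDR 0.0026). In Thy1+ cells the levels were 178, 58.9 and 77.3 CPM in control and 239, 91.3 and 128 CPM in CKO, where the libraries numbered 1 stood far above the others in both genotypes. The difference there was 0.55 ± 0.46 (FDR 0.61), and it ranged from 0.08 to 1.17 when single libraries were left out.

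Ldha (chr7:46845804-46855627, plus strand) encodes the muscle-type subunit, which is known to favour lactate. Its level in the c-Kit+ control libraries was 47.1, 32.1 and 46.8 CPM, against 89.0, 58.7 and 82.4 CPM in CKO. The lowest CKO library was above the highest control, a log2 difference of 0.81 ± 0.17 (SE; FDR 0.0045). The Thy1+ control libraries held 99.8, 68.6 and 92.3 CPM and the Thy1+ CKO libraries 128, 82.1 and 123 CPM. These overlapped, and the log2 difference of 0.36 ± 0.19 (SE) had an FDR of 0.46.

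Pfkl (chr10:77986947-78009796, minus strand) encodes the liver-type subunit of phosphofructokinase, the enzyme of the committed step of glycolysis. It stood at 22.8, 15.5 and 20.04 CPM in c-Kit+ control and at 42.6, 45.4 and 47.6 CPM in c-Kit+ CKO. The CKO libraries were close to each other and all above the controls. The log2 difference of 1.16 ± 0.13 (SE) had an FDR of 2.6e-04, the lowest FDR among the 10 genes. Thy1+ control libraries held 43.5, 22.9 and 25.2 CPM and Thy1+ CKO libraries 55.1, 28.3 and 35.9 CPM, again with the libraries numbered 1 highest (log2 fold change 0.39, SE 0.30, FDR 0.59). Pfkp (chr13:6579874-6648724, minus strand), the platelet-type subunit, was the lowest of the 10 genes. It ranged from 9.01 to 9.87 CPM in c-Kit+ control and from 9.64 to 11.4 in c-Kit+ CKO, which overlapped (log2 fold change 0.13, SE 0.13, FDR 0.45).

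Aldoa (chr7:126795234-126800447, minus strand) encodes the aldolase that splits fructose 1,6-bisphosphate into triose phosphates. Its c-Kit+ levels were 285, 203 and 277 CPM in control and 410, 381 and 429 CPM in CKO, with no overlap. The log2 difference was 0.62 ± 0.11 (SE; FDR 0.0021), and without c-Kit+ control replicate 2 it was 0.47, under the fold threshold. The Thy1+ levels were 427, 288 and 334 CPM in control and 464, 337 and 415 CPM in CKO (log2 fold change 0.22, SE 0.17, FDR 0.58).

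The hexokinases, which trap glucose in the cell by phosphorylating it, differed from each other in c-Kit+ cells. Hk2 (chr6:82725025-82774454, minus strand), the inducible isozyme, ranged from 103 to 129 CPM in control and from 160 to 171 in CKO, without overlap. The log2 difference was 0.45 ± 0.08 (SE; FDR 0.0020), and Hk2 was called without c-Kit+ control replicate 1 (0.52, FDR 5.9e-04) and in a fit of all 12 libraries (0.51). Hk1 (chr10:62268855-62379908, minus strand), the isozyme of most tissues, ranged from 57.1 to 61.8 CPM in control and from 55.5 to 63.3 in CKO. These overlapped, with a log2 difference of -0.04 ± 0.08 (SE; FDR 0.70).

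Gpi1 (chr7:34201327-34230305, minus strand), whose product interconverts glucose 6-phosphate and fructose 6-phosphate, was the single gene of the 10 with a lower level in c-Kit+ CKO at an FDR under 0.05. It ranged from 391 to 424 CPM in control and from 367 to 376 in CKO (log2 fold change -0.19, SE 0.05, FDR 0.019). Pgk1 (chrX:106187124-106203699, plus strand), the kinase of the first ATP-yielding step, ranged from 51.8 to 52.2 CPM in control and from 59.9 to 69.2 in CKO (log2 fold change 0.24, SE 0.08, FDR 0.027). Pkm (chr9:59656368-59679375, plus strand) makes pyruvate in the last step, and its gene-level count does not separate the M1 and M2 forms. It ranged from 277 to 341 CPM in control and from 362 to 401 in CKO (log2 fold change 0.28, SE 0.08, FDR 0.020). For these 3 genes the FDR rose above 0.05 when a single library was left out, up to 0.072 for Gpi1 (without c-Kit+ CKO replicate 1), 0.13 for Pgk1 and 0.081 for Pkm (both without c-Kit+ CKO replicate 3).

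**Figure D1:**
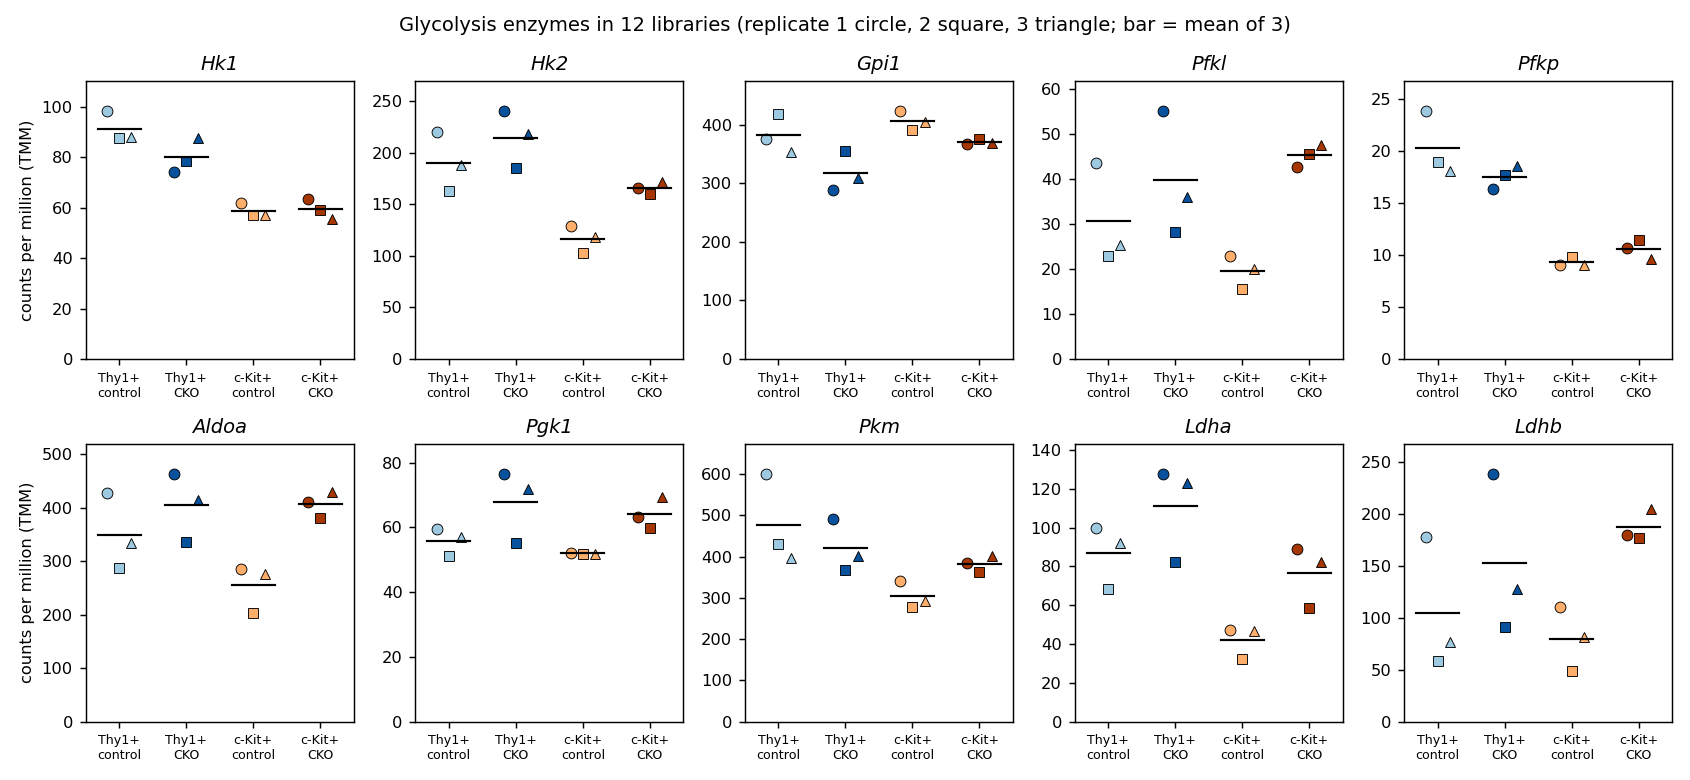
CPM after TMM scaling of the 10 genes in each of the 12 libraries, one panel per gene, with the 4 groups on the x axis, a symbol per replicate number and a bar at the mean of 3 libraries. For Ldhb, Pfkl, Ldha and Aldoa the 3 c-Kit+ CKO libraries lie above the 3 c-Kit+ control libraries, while the Thy1+ groups overlap.

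In Thy1+ spermatogonia the fit without a block called 0 of the 10 genes and 0% of the 17416 genes tested. At an unadjusted p under 0.05 the quasi-likelihood test counted 0 of the 10 genes and 12.4% of all genes, and DESeq2 and the exact test of edgeR also called 0 of the 10. Over all genes DESeq2 called just 53 higher and 331 lower, and the exact test 20 and 274. Control and CKO libraries overlapped for every one of the 10 genes, while for 17.2% of all genes they did not. The log2 fold changes of those not yet given were 0.29 (SE 0.14) for Pgk1, 0.18 (SE 0.14) for Hk2, -0.17 (SE 0.18) for Pkm, -0.18 (SE 0.11) for Hk1, -0.21 (SE 0.15) for Pfkp and -0.26 (SE 0.12) for Gpi1. Gpi1 had the lowest p of the 10 (FDR 0.42). Its level ranged from 354 to 419 CPM in control and from 289 to 355 in CKO.

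With the replicate number as a block, Ldhb was the single gene of the 10 called in Thy1+ cells (log2 fold change 0.60, FDR 6.1e-06), while 3.2% of all genes were called higher and 4.92% lower in that fit. Within all 3 same-numbered pairs of libraries, CKO was higher than control for 6 of the 10 genes (Ldhb, Ldha, Pfkl, Aldoa, Hk2 and Pgk1) and lower for 2 (Gpi1 and Hk1), against 30.7% and 27.3% of all genes tested. The blocked fit rests on same-numbered libraries deviating together, which is not stated in the labels. Leaving out Thy1+ control replicate 1 and Thy1+ CKO replicate 1, whose summed Sertoli markers of 1999 and 2619 CPM were the highest of their groups, gave a log2 fold change of 0.69 for Ldhb and 0 of the 10 genes called without the block.

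The difference between the genotype effects of the 2 populations was tested as an interaction over all 12 libraries. It was called for 0 of the 10 genes and 0% of the 18002 genes tested, so in the fit without a block the effects in c-Kit+ cells were not shown to differ from those in Thy1+ cells. The c-Kit+ effect exceeded the Thy1+ effect by 0.84 on the log2 scale for Pfkl (SE 0.37, FDR 0.48 from edgeR) and by 0.51 for Pkm (SE 0.21, FDR 0.46). Those were the 2 of the 10 genes with an unadjusted p under 0.05, against 10% of all genes. DESeq2 called 0 of the 10 as well, and just 42 higher and 17 lower over all genes. With the replicate number as a block, Ldha was called (0.52, FDR 0.021), as were 2.48% of all genes, but 10 of 18 same-numbered pairs passed the limit for treating libraries as paired here. For Ldhb the difference was 0.68 with an SE of 0.59.

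**Figure D2:**
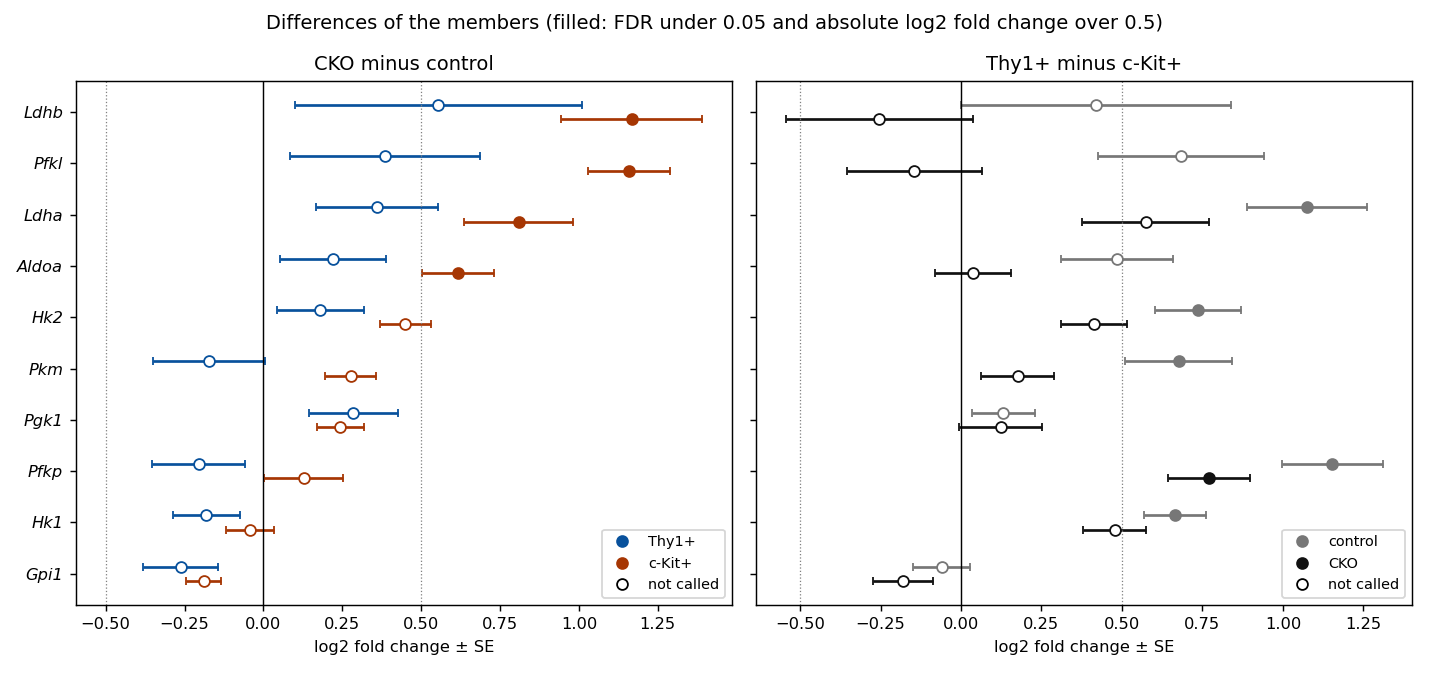
Log2 fold changes (x axis, points, with SE as bars) of the 10 genes for CKO minus control in each population (left) and Thy1+ minus c-Kit+ in each genotype (right), with dotted lines at 0.5 and -0.5 and filled points for called genes. The 4 filled genotype effects are all in c-Kit+ cells, and the population differences of controls lie to the right of those of CKO for every gene.

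Between the control populations, 5 of the 10 genes were called higher in Thy1+ than in c-Kit+ cells and 0 lower, while 20.7% of all genes tested were called higher and 7.08% lower. Pfkp differed most, with 23.9, 19.01 and 18.1 CPM in Thy1+ control and 9.06, 9.87 and 9.01 CPM in c-Kit+ control (log2 fold change 1.15, SE 0.16, FDR 7.7e-04). Ldha differed by 1.08 ± 0.19 (log2, SE; FDR 0.0031). Hk2 and Hk1 followed with 0.74 (SE 0.13) and 0.67 (SE 0.10), and the libraries of the populations did not overlap for either. Hk1 ranged from 87.8 to 98.4 CPM in Thy1+ control against the 57.1 to 61.8 CPM given above.

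Pkm was the fifth gene called between the controls, at 602, 430 and 396 CPM in Thy1+ and 341, 277 and 293 CPM in c-Kit+ (log2 fold change 0.68, SE 0.17, FDR 0.014). It fell under the fold threshold without Thy1+ control replicate 1 (0.45), and its FDR was 0.058 without c-Kit+ control replicate 2 and 0.054 without replicate 3. Pfkl (0.68, FDR 0.067) and Aldoa (0.49, FDR 0.057) had no overlap but missed the test, and Pfkl was called with the replicate block (0.64, FDR 0.0044), where 21.8% of all genes were called higher. Without Thy1+ control replicate 2 both Pfkl (0.80, FDR 0.032) and Aldoa (0.56, FDR 0.026) were called. Ldhb (0.42, SE 0.42), Pgk1 (0.13, SE 0.10) and Gpi1 (-0.06, SE 0.09) did not pass. For Ldhb the direction rested on Thy1+ control replicate 1, since the log2 fold change without it was -0.23.

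Between the CKO populations, Pfkp was the 1 gene of the 10 called, higher in Thy1+ (log2 fold change 0.77, SE 0.13, FDR 0.0028), against 15.3% of all genes called higher and 5.03% lower. It ranged from 16.3 to 18.6 CPM in Thy1+ CKO, above all c-Kit+ CKO libraries. Ldha reached 0.57 on the log2 scale (SE 0.20, FDR 0.059), Hk1 0.48 (FDR 0.0083) and Hk2 0.41 (FDR 0.019). The count depended on single libraries. Without Thy1+ CKO replicate 2 it was 4 higher (Hk1, Hk2, Pfkp and Ldha), without c-Kit+ CKO replicate 1 it was 2 higher (Hk1 and Pfkp), and without Thy1+ CKO replicate 1 it was 2 higher (Hk1 and Pfkp) and 1 lower (Ldhb, -0.71). Calls over all genes moved as well, from 1982 to 3229 higher and from 338 to 1788 lower when single libraries were left out. The comparisons of controls and of CKO share libraries with the genotype comparisons.

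Per kb of exon, the order of the 10 genes differed between the groups at its top. In c-Kit+ control libraries Gpi1 (142 ± 5.85 CPM per kb, mean ± SD, n = 3), Aldoa (140 ± 24.8) and Pkm (117 ± 12.8) led with neighbouring ranges that overlapped, ahead of Ldhb (62.1 ± 24.0), Pgk1 (28.9 ± 0.111), Ldha (21.8 ± 4.45), Hk2 (21.1 ± 2.37), Hk1 (13.01 ± 0.598), Pfkl (5.23 ± 0.988) and Pfkp (2.34 ± 0.122). Among the neighbours from Pkm down, the ranges of Ldha and Hk2 were the only ones to overlap. In c-Kit+ CKO libraries Aldoa stood alone at the top with 223 ± 13.1 CPM per kb. Pkm (147 ± 7.65) and Ldhb (145 ± 12.1) followed, with ranges that overlapped, and Gpi1 came after them at 130 ± 1.61. In both Thy1+ groups Aldoa and Pkm were first and second, with overlapping ranges, at 192 ± 39.0 and 183 ± 42.3 CPM per kb in control and 222 ± 35.2 and 162 ± 24.6 in CKO. Pfkp was last in all 4 groups. Ldhb varied most between libraries of a group: its highest library exceeded its lowest by 3.02-fold in Thy1+ control, 2.62-fold in Thy1+ CKO and 2.28-fold in c-Kit+ control, but by 1.16-fold in c-Kit+ CKO.

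The share of each isozyme among the counts per kb of its enzyme followed these levels. Of phosphofructokinase, Pfkl made up 21.3% to 27.3% in c-Kit+ control libraries and 33.4% to 37.6% in c-Kit+ CKO, without overlap. Pfkm, the muscle-type subunit, made up the largest share in every library, with 62.6% to 66.02% in c-Kit+ control and 54.7% to 58.8% in c-Kit+ CKO. Its own level was higher in c-Kit+ CKO by a log2 fold change of 0.44 (SE 0.08, FDR 0.0015), which is under the fold threshold. Of the hexokinases, Hk2 made up 58.0% to 62.1% in c-Kit+ control and 67.1% to 70.7% in c-Kit+ CKO, and Hk1 nearly all of the rest.

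Aldoa made up 80.6% to 86.7% of aldolase in c-Kit+ control and 91.1% to 91.9% in c-Kit+ CKO, with Aldoc, the brain-type aldolase, as the remainder. For lactate dehydrogenase the ranges overlapped: Ldhb was 68.9% to 77.8% in c-Kit+ control and 75.0% to 81.7% in c-Kit+ CKO. In Thy1+ control libraries Ldhb held 55.4% to 72.4%. The germ-cell isozymes were near 0, with Pgk2 at most 0.239% and Ldhc at most 0.810% of their enzyme in any library. These shares were not tested.

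**Figure D3:**
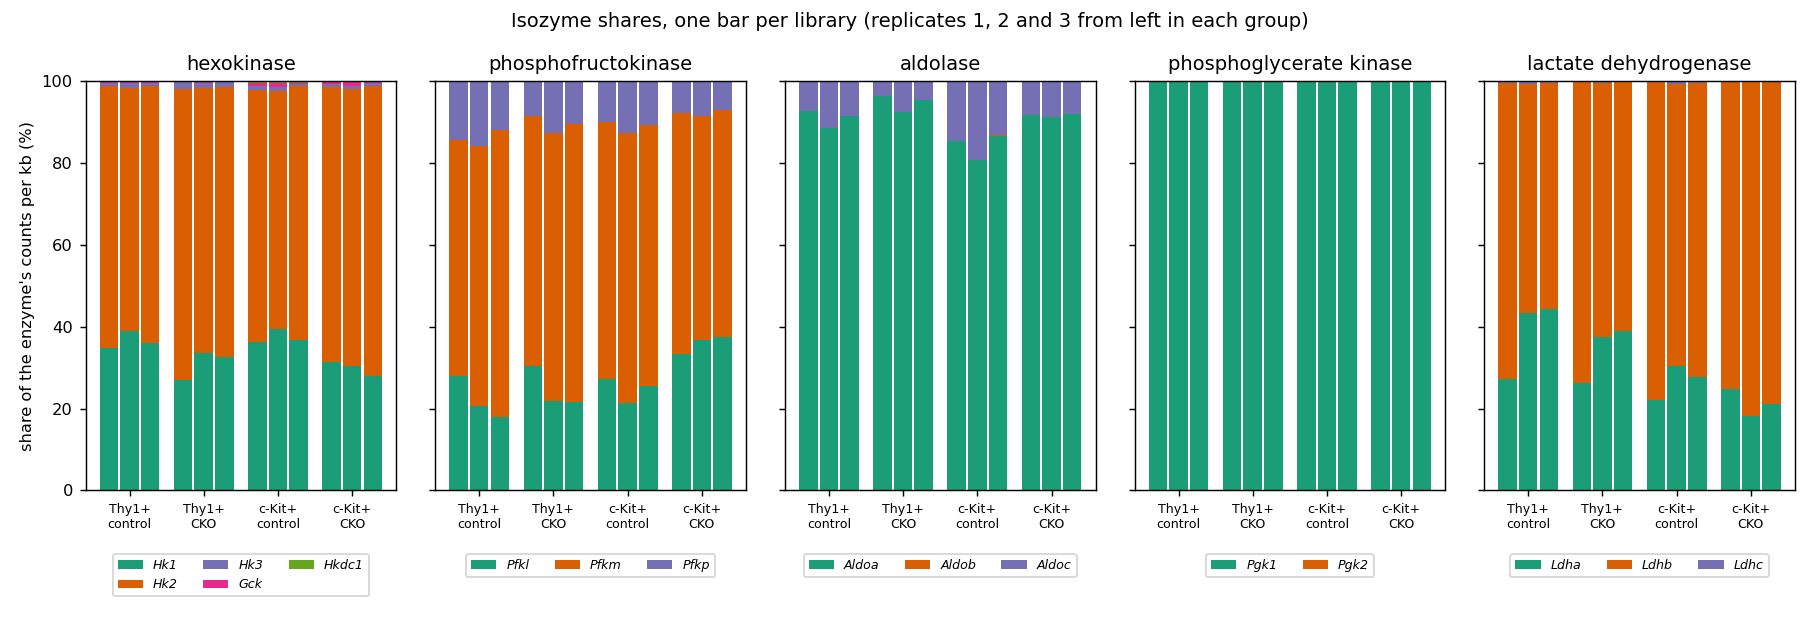
Share (percent, y axis) of each isozyme among its enzyme's counts per kb of exon, one bar per library and one panel per enzyme, with replicates 1, 2 and 3 of each group from left. Pfkl holds 33.4% to 37.6% of phosphofructokinase in c-Kit+ CKO against 21.3% to 27.3% in c-Kit+ control, and Pgk1 holds nearly all of phosphoglycerate kinase throughout.

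Among the remaining enzymes of the pathway in c-Kit+ cells, Tpi1 was called. Of 22 other listed glycolytic enzymes 18 were tested, 1 was called higher and 0 lower, against 14.8% and 7.41% of all genes, so the share called was not above that of all genes. Tpi1, the triose phosphate isomerase that follows aldolase, stood at 48.7 to 63.4 CPM in control and 86.8 to 112 in CKO (log2 fold change 0.75, SE 0.12, FDR 9.1e-04). Gapdh (0.20, FDR 0.094), Pgam1 (0.29, FDR 0.0082) and Eno1 (0.30, FDR 0.038), which act between Tpi1 and Pkm, were not called. Pfkl, Aldoa and Tpi1 act at 3 consecutive steps, but Pfkm and Pfkp, of the same step as Pfkl, were not called.

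**Figure D4:**
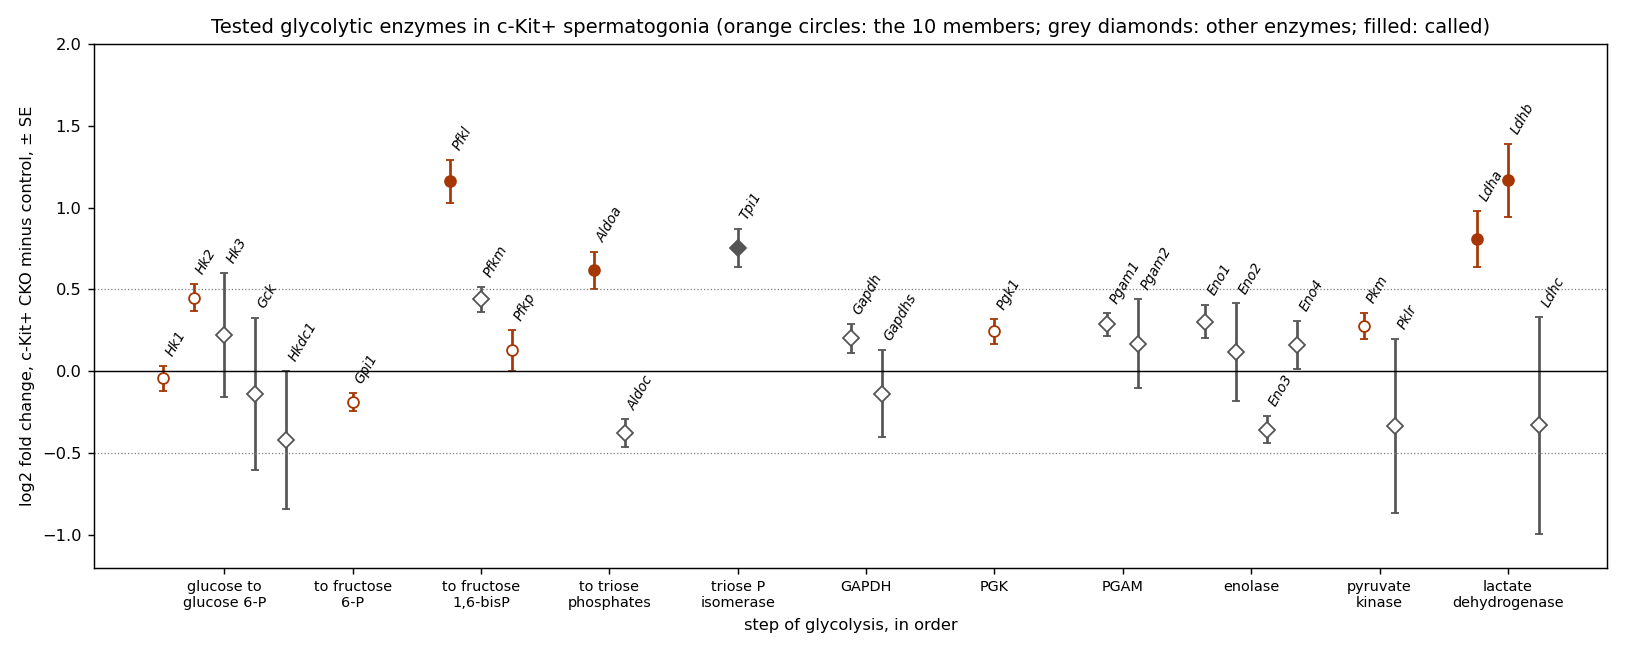
Log2 fold change of c-Kit+ CKO minus control (y axis, with SE as bars) for the tested glycolytic enzymes, in the order of the steps on the x axis, with the 10 genes as orange circles, other enzymes as grey diamonds and filled symbols for called genes. The filled symbols are Pfkl, Aldoa, Tpi1, Ldha and Ldhb.

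Genes that feed or drain the pathway were counted from lists, each to be read against the 14.8% of all genes called higher and the 7.41% called lower. The counts of 2 of 12, 2 of 14 and 1 of 7 genes called higher that follow are near that share. Of 12 transporters of glucose and lactate or their partners, 2 were called higher in c-Kit+ CKO and 0 lower: the glucose transporter Slc2a3 (0.77, FDR 0.0011) and Emb (0.56, FDR 0.024), a partner of monocarboxylate transporters. Slc2a1 (0.35, FDR 0.036) and Slc16a1 (0.22, FDR 0.022) stayed under the fold threshold, and Slc16a3 (0.56, FDR 0.16) did not pass the test. Of 13 regulators of flux, 4 were called higher and 0 lower, namely Pfkfb3 (0.54) and Pfkfb4 (0.66), which make the activator of phosphofructokinase, Epas1 (0.92) and Myc (0.77). Hif1a did not pass the test, at -0.06 (FDR 0.45). Of 14 genes for the entry of pyruvate into mitochondria, 2 were called higher (Pdk1 at 0.79 and Pdk4 at 0.67, inhibitors of pyruvate dehydrogenase) and 2 lower (the carrier subunit Mpc1 at -0.73 and the testis-type subunit Pdha2 at -1.28). Of 7 genes of the pentose phosphate pathway, Tkt was called higher (0.73) and 0 were lower. Of 7 gluconeogenic genes 5 were tested, with G6pc3 called higher (0.61) and Pck1 lower (-1.35). None of the 5 genes of the serine branch was called. In Thy1+ cells 0 genes of these 7 lists were called between genotypes.

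The levels of some of the 10 genes moved with the summed Sertoli markers. The isolation included collagenase against interstitial cells, a strainer against Sertoli cells and a plating step to let other somatic cells attach, before the beads, and Thy1+ cells were taken from what the c-Kit beads did not hold. In the c-Kit+ comparison 31 of the 45 tested somatic markers were called higher in CKO and 0 lower, against 14.8% and 7.41% of all genes. Called higher were 9 of 10 Sertoli, 7 of 7 stromal, 5 of 6 endothelial and 4 of 6 Leydig markers. The same held for 3 of 5 peritubular myoid, 3 of 4 mast cell, 0 of 6 macrophage and 0 of 1 erythroid markers. Of 10 germ cell markers, 3 were called lower and 0 higher. The germ cell list includes Sycp3, Stra8 and Zbtb16 (Plzf), which the paper reports as down-regulated in Chd8-mutant Thy1+ or c-Kit+ spermatogonia. Lower expression per cell and fewer germ cells therefore cannot be told apart in it. The summed stromal markers were 1816 to 2274 CPM in c-Kit+ control and 3293 to 4379 in c-Kit+ CKO, and the summed germ cell markers 3466 to 4027 and 2578 to 2925 CPM. In 5 libraries the summed Sertoli markers were at or above 1999 CPM, namely the 3 of c-Kit+ CKO and replicate 1 of both Thy1+ groups, and the other 7 were at or below 1381 CPM. The same 5 libraries had the highest Ldhb, at 177 CPM or more against 128 or less in the other 7, and the highest Pfkl, at 42.6 CPM or more against 35.9 or less. For Aldoa and Pgk1 4 of these 5 libraries were among the 5 highest, for Pkm and Ldha 3, for Hk2 2, and for Hk1, Gpi1 and Pfkp 1. This grouping rests on the Sertoli list alone. For the 3 c-Kit+ CKO libraries the match largely repeats the genotype calls, since Ldhb, Pfkl and 9 of 10 Sertoli markers were called higher there. How many of all genes tested show the same match was not counted, so it is not particular to these genes. Summed over all somatic lists, markers stood at 12440 to 21694 CPM in the Thy1+ libraries, 3456 to 4598 in c-Kit+ control and 6959 to 8579 in c-Kit+ CKO. Every Thy1+ library was above every c-Kit+ library in this sum, which in Thy1+ libraries consists mostly of stromal markers. Thy1+ control replicate 2, with Ldhb at 58.9 CPM, held 11121.5 CPM of stromal markers in its sum of 12440. Its Sertoli markers, at 485 CPM, were the lowest of the 12 libraries. The part of somatic cells in the genotype differences was not tested.

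**Figure D5:**
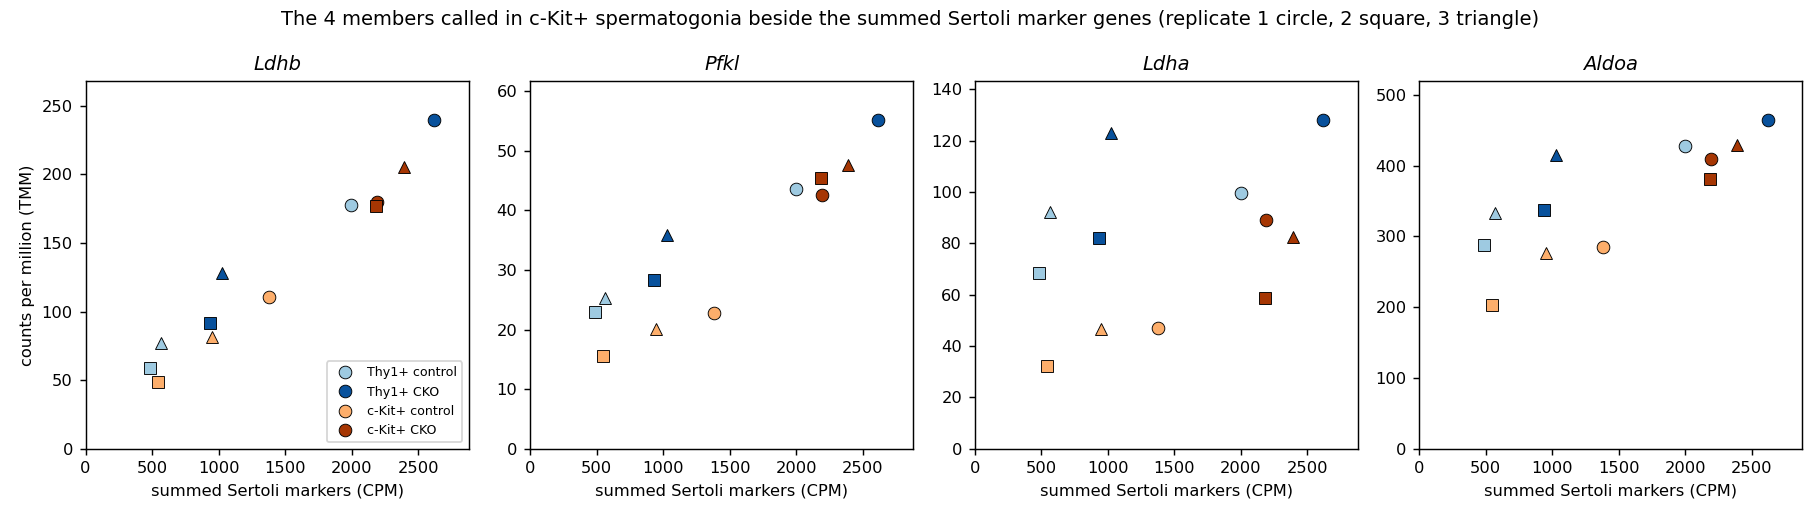
CPM of Ldhb, Pfkl, Ldha and Aldoa (y axis) against the summed CPM of 10 Sertoli markers (x axis) in the 12 libraries, with colours for the groups and symbols for the replicate numbers. The 5 libraries with 1999 CPM or more of Sertoli markers have the highest Ldhb and Pfkl, while Ldha in Thy1+ CKO replicate 3 reaches 123 CPM at 1026 CPM of Sertoli markers.

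Beside the control populations, the summed stromal markers were 11121 to 14495 CPM in Thy1+ and 1816 to 2274 in c-Kit+, macrophage markers 77.7 to 145 and 15.5 to 44.1, and Leydig markers 233 to 423 and 626 to 1221. In that comparison 21 of 46 tested somatic markers were called higher in Thy1+ and 9 lower, against 20.7% and 7.08% of all genes. Of 10 germ cell markers, 2 were called higher in Thy1+ and 6 lower. Their sums were 2027 to 3048 CPM in Thy1+ and 3466 to 4027 in c-Kit+. The part of the cell mixture in the higher Thy1+ levels of Pfkp, Ldha, Hk2, Hk1 and Pkm was not tested.

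For each of the 10 genes, the gene with the most similar course over the 12 libraries was taken from 9355 candidates outside the lists, by the Pearson correlation of log2 CPM. These were St3gal4 for Ldhb (r = 0.99), Synm for Pfkl (r = 0.99), Tln1 for Ldha (r = 0.99), Sfxn3 for Aldoa (r = 0.99), Clic1 for Hk2 (r = 0.997), Pip4k2a for Pfkp (r = 0.99), Il17rd for Hk1 (r = 0.98), Padi3 for Gpi1 (r = 0.98), Sdc4 for Pkm (r = 0.97) and Etfrf1 for Pgk1 (r = 0.97). The 12 points share groups and libraries, so the values describe these libraries alone. Among the 10 genes, Gpi1 ran opposite to Pgk1 most clearly (r = -0.86 over 12 libraries).

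The genome holds near-copies of some of these genes, which bears on how far counts reflect them. In windows of 100 bases along the exons, a match of at least 90 aligned bases at 95% identity or more lay elsewhere in the genome for 98.3% of the Ldhb windows (at 1 other locus), 97.1% for Pgk1 (6 loci), 72.8% for Pkm (12), 67.4% for Ldha (22), 59.1% for Gpi1 (11), 53.2% for Aldoa (10) and 2.27% for Hk1 (1). Hk2, Pfkl and Pfkp had none. Among the other enzymes named above, it was 97.6% of windows for Eno1 (16 loci), 94.8% for Pgam1 (6) and 61.6% for Tpi1 (8), and Pfkm had none. For Gapdh it was 100% of windows, at 272 loci, and its level was 58.6 to 80.5 CPM. The command of the counting step shows no option for reads with several alignments, and where such reads are dropped or split, the levels per kb of Ldhb, Pgk1, Pkm, Ldha, Gpi1 and Aldoa, and the isozyme shares made from them, are uncertain. The exons of Pfkp share 285 bases with Pitrm1 on the other strand (1906 to 3847 counts per library), and those of Ldhb share 355 bases with gene ID 100862384 (1 to 14 counts). The counting used no strand, so reads there cannot be told apart.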

How the data were processed

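RNA-seq was analysed from 12 libraries, 3 for each of Thy1+ control, Thy1+ CKO, c-Kit+ control and c-Kit+ CKO spermatogonia. The authors deposited raw counts for each gene and library, neither normalized nor pooled. They made them from paired-end reads of poly(A)-selected directional libraries, using Trimmomatic 0.39 for trimming, HISAT2 2.1.0 for alignment to mm10 (versions from the submitters' processing notes) and featureCounts for assignment to RefSeq exons. The header of the table gives version 2.0.3, the option for paired reads, and none for strand or for counting pairs. Both reads of a pair may thus be counted: 65.6% to 69.5% of the values from 1 to 19 were even, and intervals from counting error would be too narrow. Gene lengths are the table's summed exon lengths. ChIP-seq samples of the series were not analysed here.

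Symbols were given by Entrez gene ID from RefSeq (GRCm38.p6). Each comparison was fitted on the whole table in edgeR 4.0.16 (R 4.3.3) after filterByExpr and TMM scaling, with the quasi-likelihood F test and Benjamini-Hochberg adjustment over all genes tested. Calls needed a log2 fold change beyond 0.5 in either direction and an FDR under 0.05, and for the interaction an FDR under 0.05 alone. The steps were tested on simulated data, with independent libraries and a smaller spread than that fitted in Thy1+ cells. That test therefore does not show what the Thy1+ fit could detect. Pairs of libraries of 1 group differed by more than counting error (chi-square per degree of freedom 10.8 to 76.7), so each library was counted as 1 replicate.

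The 10 genes, the lists of related genes and the marker lists were chosen with earlier results of these data known. The text names the 10 genes in every comparison, every called gene of the lists of metabolic genes in the c-Kit+ genotype comparison, and a set of reference genes. Marker lists are given by counts and summed levels. Same-numbered libraries, after subtraction of group means, correlated at 0.269 to 0.494 in Thy1+, 0.101 to 0.125 in c-Kit+ and 0.134 to 0.298 between controls, above the limit of 0.1 for treating them as paired. The lowest c-Kit+ value lies just above that limit. Pairing is not stated in the labels. The main fits nonetheless carried no block in any comparison, like the exact test used in the paper, and the replicate block was run as an alternative. Alternatives were DESeq2 1.42.0, edgeR with DESeq2's factors or without TMM, no filter, 1 CPM in 3 libraries, edgeR's exact test, 1 fit of all 12 libraries, no minimum fold change, the replicate block, and leaving out each library. Leaving out both Thy1+ libraries numbered 1 was added after seeing the data. Near-copies were sought with minimap2 2.31 against GRCm38.p6.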

Additional observations from a re-analysis of the deposited data

How the results depend on the processing

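The 4 genes called in c-Kit+ cells were called under every alternative run, except that Aldoa fell to 0.47 without c-Kit+ control replicate 2. The count was 3 to 5 genes higher and 0 lower when single libraries were left out. Without a minimum on the fold change it was 7 higher and 1 lower. Calls over all genes ranged from 2087 to 2735 higher and from 1039 to 1409 lower when single libraries were left out. Hk1 changed sign in the fit of all 12 libraries (0.016), where Hk2 was called too. In Thy1+ cells the count of 0 became 1 with the replicate block, and stayed 0 when any library was left out. Pkm ranged from -0.30 to 0.026 and changed sign without Thy1+ control replicate 1. The block changed no other call in the paired comparisons than Ldhb in Thy1+ cells and Pfkl between controls.

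Between controls, calls over all genes ranged from 2917 to 3645 higher and from 625 to 2002 lower when single libraries were left out. Ldhb ranged from -0.23, without Thy1+ control replicate 1, to 0.69 in those fits. For the 10 genes the count was 4 to 7 there, and DESeq2 called Pfkl as well (0.64, FDR 0.027). Between the CKO populations it was 2 without a filter, with DESeq2, with the exact test or with the replicate block, 3 without a minimum on the fold change, and 1 to 4 higher with 0 to 1 lower when single libraries were left out. There the sign of Aldoa changed with library size only (-0.050), in the fit of all 12 libraries (-0.0045) and without Thy1+ CKO replicate 1 or c-Kit+ CKO replicate 2 (-0.049 to 0.16 when single libraries were left out). Without Thy1+ CKO replicate 2 the signs of Pfkl (range -0.43 to 0.059) and Ldhb (-0.71 to 0.018) changed. In that comparison 1 of 3 same-numbered pairs passed the limit, and in the interaction 10 of 18, so neither met it in every pair. With the block 1 gene was called in the interaction (Ldha, 0.52, FDR 0.021), where 2.48% of all genes were called. There Pgk1 changed sign with DESeq2's size factors (-0.055), without a filter (-0.010), with DESeq2 (-0.054), and without Thy1+ control replicate 1 or 2, Thy1+ CKO replicate 2 or c-Kit+ CKO replicate 3 (range -0.12 to 0.12), and Gpi1 without Thy1+ control replicate 2 (range -0.021 to 0.23). The cause of these changes was not tested.

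Over all genes, Thy1+ calls (0 higher and 0 lower) were 53 and 331 with DESeq2, 20 and 274 with the exact test, 14 and 236 in the fit of all 12 libraries, and 558 and 856 with the block. Interaction calls were 42 and 17 with DESeq2 and 422 and 24 with the block. With library size only, calls of 3594 higher and 1229 lower between controls became 3252 and 1851, and calls of 2653 and 872 between CKO populations became 2393 and 1390. Without a minimum on the fold change, lower calls in c-Kit+ cells rose from 1270 to 3139. With 3 libraries a group, differences of the size of the SEs given could not be detected, and near-copies limit the levels of Ldhb, Pgk1, Pkm, Ldha, Gpi1 and Aldoa.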
